A study of Saccharomyces cerevisiae with 44 samples.

Results

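The genes described here encode the subunits of RNA polymerases I, II and III of Saccharomyces cerevisiae. They were taken from the sense-strand mRNA table by name, as all S. cerevisiae genes called RPA, RPB or RPC with a number, plus RPO21, RPO26, RPO31 and RET1. This rule found 31 of the 6600 S. cerevisiae genes and used no measured value. All 31 names matched a gene symbol of the RefSeq annotation. 7 of them belong to polymerase I only, 7 to polymerase II only and 10 to polymerase III only. 2 are shared by polymerases I and III, and 5 by all 3 enzymes, so that 14, 12 and 17 genes of the set serve polymerases I, II and III.

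RNA polymerase I makes the large ribosomal RNA precursor, polymerase II makes mRNAs and most noncoding RNAs, and polymerase III makes tRNAs, the small 5S ribosomal RNA and a few other short RNAs. In each enzyme the largest pair of subunits forms the catalytic centre, a pair of smaller subunits starts assembly, and a further pair forms a stalk that sticks out of the core. Polymerases I and III also carry, as built-in subunits, parts that resemble initiation factors of polymerase II. In growing yeast most transcription serves ribosome and tRNA production, which is known to fall when nutrients run out.

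The series measured RNA of yeast strain W303 in 44 libraries, which form 22 groups of 2 samples. RNA-seq gave the steady-state RNA and 4tU-seq, which sequences RNA that has taken up 4-thiouracil, the nascent RNA. Quiescent cells, which are in a lasting resting state, came from cultures of 7 or 8 days in YEP medium (2% glucose), from which a gradient had separated them. G1 cells of day 1 had been arrested in early log phase with alpha factor at 5 µg/ml. The diauxic shift, the point at which glucose is used up, was sampled at 4 times: 2 h earlier, and then 2 h, 24 h and 48 h later. The genotypes were wild-type, rrp6Δ (without Rrp6, a nuclease of the nuclear exosome), Nab3-AID (with an auxin-inducible degron on Nab3, which ends short noncoding transcripts) and the control OsTIR-AID. Auxin (IAA) was given at 1 mg/ml to Nab3-AID and OsTIR-AID alike. The 8 libraries of wild-type day 7 and G1 cells in both RNA fractions were made with the Ovation SoLo kit. The other 36 were made with the Universal Plus kit: 8 of day 8 wild-type and rrp6Δ cells, 20 of G1 and the diauxic shift in both genotypes, and 8 of day 7 Nab3-AID and OsTIR-AID cells.

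Each library held between 1337088 and 11939647 reads on S. cerevisiae mRNAs, of which the 31 genes took 0.272% to 0.965%, or 5209 to 115237 reads. RRP6 stood at 1.44 to 9.12 in the 14 rrp6Δ libraries and at 36.0 to 123.9 in the 30 others. The summed level of the quiescence markers HSP12, HSP26, SPG1, GRE1 and SNZ1 was at least 5836 in the 20 libraries of cells labelled quiescent (48 h libraries not included) and at most 884 in the 8 G1 libraries. In the 16 libraries around the shift this sum ranged from 993 to 131570, so it does not mark quiescence alone. The pheromone-response genes FUS1, FUS2, AGA1, PRM6 and ASG7 summed to at least 5858 in G1 and to at most 142 elsewhere. Loss of Nab3 protein was not measured, and NAB3 mRNA does not check it.

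Levels below are in RPKM (reads per kilobase of annotated exon, relative to library size). They are scaled by the TMM method between the libraries of one kit set, so that samples of that set can be compared. Between genes they are a rougher guide, since the annotated length can be shorter than the transcript. RPC10, for example, has 213 annotated bases, while its locus assembled in G1 runs from 387152 to 387713. Differences are log2 fold changes ± standard error with 2 samples per group, tested over all genes by edgeR's quasi-likelihood F-test. A gene is called higher or lower when its Benjamini-Hochberg adjusted p is under 0.05. The main scale is relative to all S. cerevisiae mRNA. A scale relative to the Kluyveromyces lactis reads that every library also held is given beside the comparisons. The labels do not say in what form or at which step the K. lactis material entered, so what this scale is relative to, cells or RNA, is not known here. In these bulk samples a change in the share of cells that hold a transcript and a change in its amount per cell cannot be told apart.

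In G1 cells the subunit mRNAs of the 3 enzymes stood at different levels. In wild-type steady-state G1 libraries of the Ovation set the mean level per gene was 319 and 272 for the polymerase I subunits, 186 and 184 for those of polymerase II, and 133 and 113 for those of polymerase III. The polymerase I mean was above that of polymerase II in both samples, and that of polymerase II above that of polymerase III. The 5 shared subunits had the highest mean, 534 and 478, and the pair shared by I and III had 439 and 366. Those 5 genes are annotated with only 213 to 648 bases, and whether their rank depends on this length was not tested. Within a class the levels were spread by 2.59-fold for polymerase I (RPA14 lowest, RPA34 highest), 2.82-fold for polymerase II (RPB3 to RPO21) and 4.04-fold for polymerase III (RPC17 to RPC11). In steady-state RNA of quiescent day 7 cells the order of the enzymes was another one. The polymerase I mean was 36.9 and 44.6, the polymerase II mean 184 and 194, and the polymerase III mean 51.0 and 66.9. The ratio of the polymerase I to the polymerase II mean was therefore 1.71 and 1.48 in the G1 samples and 0.200 and 0.231 in the quiescent samples, with no overlap between the groups. Nascent RNA of these quiescent day 7 cells had the G1 order of means, with 130 and 121 for polymerase I, 116 and 118 for II and 75.9 and 81.1 for III. By class medians replicate 2 had 117.5 for polymerase I and 118.0 for II. Quiescent nascent RNA of other library sets did not always have this order. Wild-type day 8 cells had means of 182 and 110.2 for polymerase I against 146.6 and 135.1 for II. OsTIR-AID day 7 cells had 74.0 and 55.7 against 143 and 144. In wild-type steady-state RNA of day 8, another library set, the means of polymerases I (73.8 and 86.3) and III (85.8 and 81.7) overlapped.

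The first comparison asks how the steady-state level of the subunit mRNAs differs between quiescent day 7 and G1 wild-type cells. All 7 subunits of polymerase I alone fell, with log2 changes of -3.38 to -1.72, and so did all 5 subunits shared by the 3 enzymes. Of the 10 polymerase III subunits 9 fell and 1 was not called. Of the 7 polymerase II subunits only 3 fell, 1 rose and 3 were not called. In all 25 members were lower and 1 was higher, which is 83.9% called, where 74.4% of all 6001 genes tested were called and 37.8% were called lower and 36.6% higher. The class medians were -3.10 for polymerase I, -0.51 for II, -1.16 for III, -1.38 for the pair shared by I and III and -2.56 for the subunits shared by all, against -0.01 over all genes. The smallest fall of a polymerase I subunit, that of RPA14, was larger than the largest of a polymerase II subunit, that of RPB9.

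RPA190, the largest catalytic subunit of polymerase I (YOR341W, chromosome XV, 960987 to 965981 on sacCer3/R64), had a level of 53.9 and 59.3 in the quiescent samples and of 429 and 375 in the G1 samples. It fell by 2.83 ± 0.25 (adjusted p = 9.8e-06). RPA135, the second catalytic subunit (YPR010C, chromosome XVI, 577585 to 581196), had 36.0 and 44.8 against 367 and 327 and fell by 3.10 ± 0.25 (adjusted p = 6.1e-06). Both genes were many times lower in each quiescent sample than in either G1 sample. The largest fall of the class was in RPA43, a stalk subunit (YOR340C, chromosome XV, 959202 to 960182), which went to 18.6 and 22.8 from 220.4 and 208, a change of -3.38 ± 0.20 (adjusted p = 1.3e-06). RPA43 and RPA190 lie head to head on chromosome XV with 804 bases between them. RPA49 and RPA34, which form a dimer resembling initiation factors of polymerase II, changed by -3.31 and -2.86, and RPA12, which takes part in RNA cleavage, by -3.10. RPA14, the second stalk subunit, changed least, by -1.72 ± 0.27, from 192 and 155 to 54.8 and 49.6, and its groups did not overlap either. Its annotated gene shares 8 bases with a gene on the same strand, YDR157W.

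The polymerase II subunits were split. RPO21, the largest catalytic subunit (YDL140C, chromosome IV, 205360 to 210561), had 427 and 454 in quiescence and 301 and 319 in G1, and RPB2, the second catalytic subunit (YOR151C, chromosome XV, 612997 to 616671), had 178 and 269 against 236 and 225. The quiescent samples of RPO21 were both above the G1 samples, and those of RPB2 lay on either side of them. Neither was called, with changes of 0.51 ± 0.22 (adjusted p = 0.059) and -0.05 ± 0.23 (adjusted p = 0.86). With DESeq2 the difference for RPO21 was 0.57 (adjusted p = 0.00449). RPB4, a stalk subunit that can leave the enzyme (YJL140W, chromosome X, 150961 to 151626), was the only member of all 31 called higher on the main scale. It had 286 and 355 in quiescence and 169.8 and 142 in G1, a change of 1.03 ± 0.18 (adjusted p = 0.00081), which was 0.62 and not called with K. lactis scaling. Its stalk partner RPB7 had 139.5 and 107 against 182 and 194 and fell by 0.60 ± 0.20 (adjusted p = 0.025), a call lost without either G1 sample (adjusted p = 0.066 and 0.10) or without quiescent replicate 2 (adjusted p = 0.099). RPB9, which helps the enzyme proofread, fell by 1.52 ± 0.24, and RPB3, of the assembly pair, by 1.05 ± 0.16. Its partner RPB11 had 158 and 66.5 against 162 and 162, and its change of -0.51 ± 0.35 was not called.

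Within polymerase III the largest catalytic subunit was the one member that was not called. RPO31, the largest subunit (YOR116C, chromosome XV, 539763 to 544145), had 101.2 and 152 in quiescence and 139.9 and 138 in G1. Its groups overlapped, and its change of -0.14 ± 0.22 (adjusted p = 0.59) was the smallest of the class. RET1, the second catalytic subunit (YOR207C, chromosome XV, 730008 to 733457), had 89.8 and 113 against 178 and 155 and fell by 0.72 ± 0.20 (adjusted p = 0.0093), a call that was lost without G1 replicate 1 (-0.62, adjusted p = 0.077). RPC25, a stalk subunit (YKL144C, chromosome XI, 175843 to 176481), fell most, to 10.7 and 14.7 from 69.6 and 71.9, a change of -2.50 ± 0.23 (adjusted p = 1.5e-05). RPC17, the other stalk subunit, fell by 0.84. The trimer of RPC82, RPC34 and RPC31, which opens promoters, fell by 1.66, 1.77 and 0.67, the last call being lost without G1 replicate 1 (-0.46, adjusted p = 0.18) or quiescent replicate 1 (-0.52, adjusted p = 0.067). The transcript locus assembled over RPC31 in quiescent cells also holds the gene PGA2. The dimer of RPC53 and RPC37, which resembles a polymerase II initiation factor, fell by 1.34 and 0.97, and RPC11, needed for termination and RNA cleavage, by 1.75.

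The shared subunits also differed among themselves. RPC40, of the assembly pair of polymerases I and III, fell by 2.32 ± 0.18, from 484 and 399 to 83.5 and 93.5. Its partner RPC19 had 266 and 271 in quiescence and 394 and 333 in G1, and its change of -0.44 ± 0.18 was not called (adjusted p = 0.057). A catalogued cryptic transcript on the same strand, CUT4x-CUT4086, overlaps RPC19 by 264 bases, so the sense reads of RPC19 need not all be mRNA. Of the subunits common to all 3 enzymes, RPO26, RPB8 and RPB5 fell, with changes of -2.78, -2.62 and -2.56, and the small zinc-binding subunits RPB10 (to 198 and 214 from 608 and 552) and RPC10 (-1.15) fell less. RPO26 fell most, from 598 and 486 to 72.7 and 85.9. Scaled to K. lactis reads, the median of all genes moved to -0.41, 18 members were called, all of them lower, and the 7 polymerase I subunits were among them with -3.77 to -2.10.

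**Figure D1:**
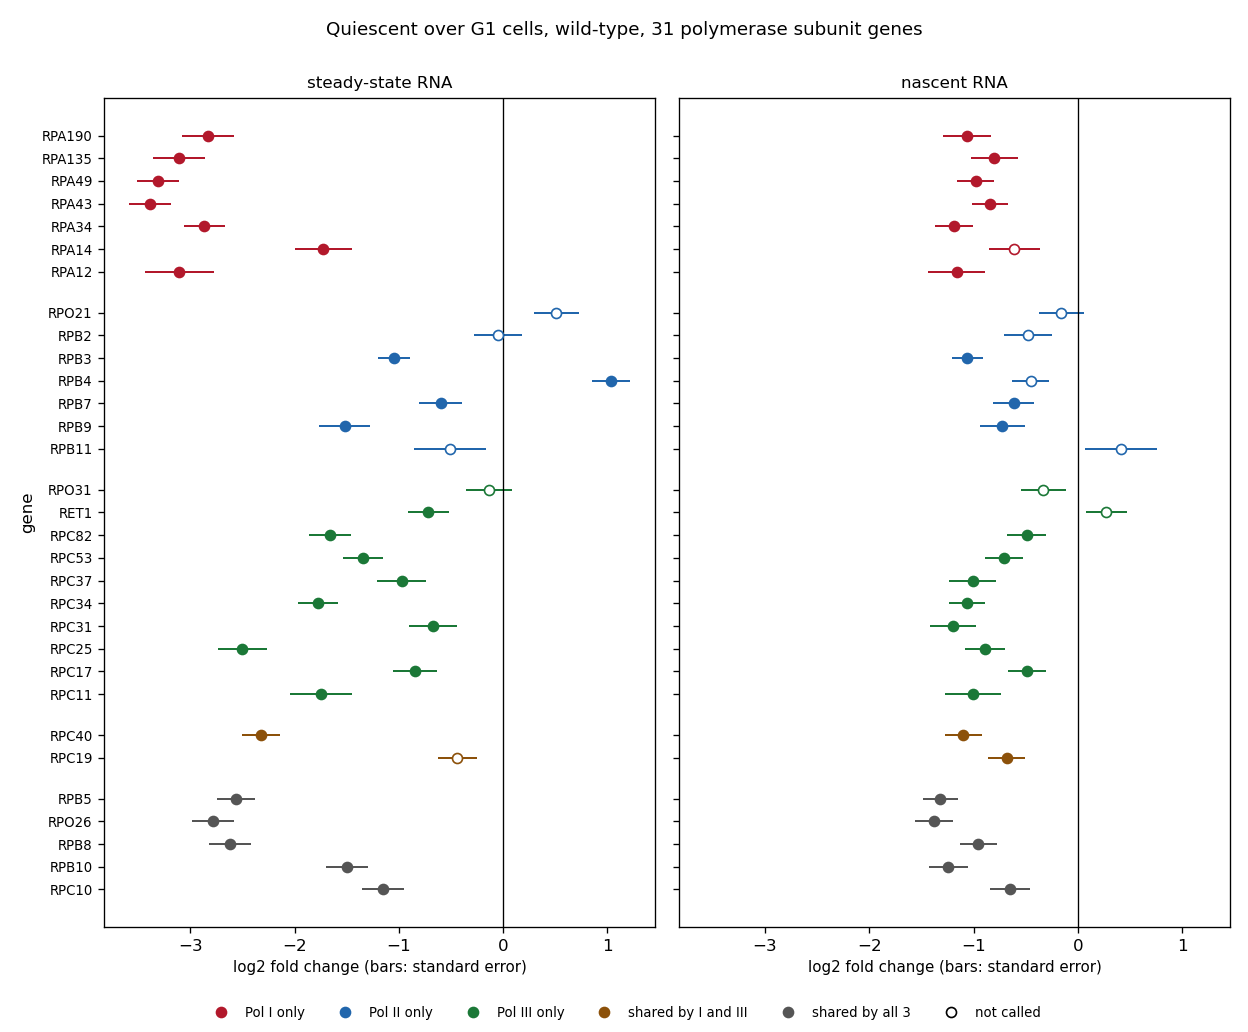
Log2 fold change of quiescent day 7 over G1 wild-type cells for each of the 31 subunit genes, in steady-state RNA on the left and nascent RNA on the right, with standard errors and 2 samples per group. Filled points are called and open points are not. In steady-state RNA the polymerase I genes lie between -3.38 and -1.72 and the polymerase II genes between -1.52 and 1.03, while in nascent RNA the points lie between -1.38 and 0.41.

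The next question is whether nascent RNA of these states differed too. Here 24 members were lower and none higher, or 77.4%, against 62.2% of all genes called and 32.9% called lower. The polymerase I median was -0.98, that of II -0.48, that of III -0.80, that of the pair shared by I and III -0.89 and that of the subunits shared by all -1.24, against -0.08 over all genes. RPA190 had 159 and 113 in quiescence and 287 and 283 in G1, a change of -1.07 ± 0.23 (adjusted p = 0.0039). RPA135 had 175 and 124 against 262 and 259 and changed by -0.80 ± 0.23 (adjusted p = 0.015), a call that was lost without either G1 sample or without quiescent replicate 2 (adjusted p between 0.056 and 0.071). In both genes the quiescent samples were below the G1 samples. RPA34 changed most in its class, by -1.19 ± 0.18, and RPA14 was not called (-0.61 ± 0.24, adjusted p = 0.056).

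The catalytic subunits of polymerases II and III were not called in nascent RNA. RPO21 had 259.9 and 218 in quiescence and 279 and 254 in G1 (-0.16 ± 0.22), and RPB2 had 155 and 140.1 against 204 and 206 (-0.48 ± 0.23). RPO31 had 113 and 106 against 141 and 135 (-0.33 ± 0.22), and RET1 had 189 and 214 against 167 and 166 (0.27 ± 0.19). RET1 was the one of these 4 whose quiescent samples were both above the G1 samples. The largest changes of the other classes were in RPB3 (-1.06 ± 0.15), RPC31 (-1.19 ± 0.22), RPC40 (-1.10 ± 0.17) and RPO26 (-1.38 ± 0.18), all called. RPB4, higher in steady-state RNA, had 79.2 and 90.0 in nascent quiescent RNA and 110.3 and 121 in G1, and was not called (-0.45 ± 0.18, adjusted p = 0.055). With K. lactis scaling the median of all genes was -4.56 and all 31 members were called lower, between -5.81 and -4.07, so that RPB11 and RET1, above 0 on the main scale, were below it there. 15 of the 24 calls were kept whichever single library was left out, and 15 members were called without G1 nascent replicate 1. The calls of RPC17 and RPC82 were lost under the replicate block, in which the wild-type samples of one strain number are paired (adjusted p = 0.054 and 0.050).

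Whether the change in nascent RNA differed from the change in steady-state RNA was tested as an interaction. The difference was above 0 for all 7 polymerase I subunits, between 1.12 and 2.54, meaning that on the main scale the nascent RNA fell less than the steady-state RNA, but on the K. lactis scale, where the median of all genes was -4.07, it was below 0 for all 31 members and between -2.89 and -1.58 for those of polymerase I. On the main scale 14 members were called higher and 1 lower, or 48.4%, against 37.6% of all genes called and 20.7% called higher. The calls were 7 of 7 for polymerase I, 3 of 10 for III, 1 of 2 for the pair shared by I and III, 3 of 5 for the subunits shared by all, and 1 of 7 for II. The class medians were 1.94 for polymerase I, -0.02 for II and 0.67 for III, against 0.05 over all genes. The largest difference was that of RPA43, 2.54 ± 0.26 (adjusted p = 0.0006). RPB4 was the member that was lower, with -1.49 ± 0.26 (adjusted p = 0.0033), having risen in steady-state RNA and not been called in nascent RNA on the main scale. RPA190 and RPA135 had 1.76 ± 0.33 and 2.30 ± 0.33, and RET1 0.99 ± 0.28, while RPO21 (-0.67 ± 0.31), RPB2 (-0.43 ± 0.32) and RPO31 (-0.19 ± 0.31) were not called. The calls of RET1, RPA14 and RPC82 were each lost without single libraries, G1 replicate 1 of the steady-state samples among them (0.87, 0.94 and 0.89, adjusted p = 0.11, 0.15 and 0.055).

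The fractions were also set side by side within each state, with the same libraries. The quiescent minus the G1 value of this comparison is the interaction above. In G1 cells 4 members were called, all lower in nascent RNA (RPB11, RPB8, RPO26 and RPC40), or 12.9% against 27.3% of all genes. Omitting 1 library left 0 to 2 calls (0 without nascent replicate 2), the call of RPC40 was lost under the replicate block (adjusted p = 0.051), and with K. lactis scaling, where all genes had a median of 2.18, 28 members were higher and none lower. In quiescent cells 18 members were higher and 4 lower in nascent RNA, or 71% against 52.7% of all genes. All 7 polymerase I subunits were higher in nascent RNA there, by 0.90 to 2.23, but with K. lactis scaling, where the median of all genes was -2.04, none of them was called and their values lay between -1.12 and 0.16. The 4 members that were lower in quiescent nascent RNA were RPB4 (-1.92), RPB11 (-0.97), RPO21 (-0.88) and RPC31 (-0.81). Of these RPB4 had the widest gap, with 79.2 and 90.0 in nascent against 286 and 355 in steady-state RNA. The values of RPB11 and RPC31 rested on single libraries, RPB11 being at -0.15 (adjusted p = 0.66) without quiescent steady-state replicate 1 and RPC31 at -0.54 (adjusted p = 0.082) without replicate 2.

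The next comparisons follow wild-type cells across the diauxic shift in steady-state RNA. From 2 h before to 2 h after the shift 30 of the 31 members fell and none rose, or 96.8%, against 77.5% of all 6182 genes called, 36.7% lower and 40.8% higher. All 30 calls were kept whichever single library was left out. The polymerase I subunits fell by 1.54 to 3.97, those of polymerase III by 1.33 to 2.00, and 6 of the 7 of polymerase II by 0.41 to 1.04. The class medians were -3.48 for polymerase I, -0.57 for II, -1.62 for III, -2.44 for the pair shared by I and III and -2.31 for the subunits shared by all, against 0.06 over all genes. No polymerase II subunit fell as far as any polymerase I or III subunit.

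RPA190 had 290.4 and 289 before the shift and 45.0 and 38.1 after it, a fall of 2.80 ± 0.11 (adjusted p = 5.0e-18). RPA135 had 323 and 297 before and 30.8 and 21.6 after, a fall of 3.57 ± 0.17. RPA49 fell furthest of all members, from 247 and 219 to 16.4 and 13.3, by 3.97 ± 0.16 (adjusted p = 4.6e-15). For these 3 genes every sample after the shift lay far below every sample before it. RPA14 again fell least in its class, by 1.54 ± 0.11, from 170.3 and 155 to 59.4 and 52.6.

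For polymerase II, RPO21 had 236 and 233 before and 181 and 169 after, a fall of 0.42 ± 0.09 (adjusted p = 9.6e-05), and RPB2 had 191 and 191 against 114 and 109.4, a fall of 0.77 ± 0.07 (adjusted p = 4.3e-10). RPB9 fell most, by 1.04 ± 0.11. RPB4 was the member not called, with 194 and 198 before and 219.9 and 236 after (0.22 ± 0.10, adjusted p = 0.054). Both its later samples were above both earlier ones on this scale, while with K. lactis scaling its change was -0.73. For polymerase III, RPO31 went from 113 and 114 to 47.0 and 43.4, a fall of 1.33 ± 0.08, and RET1 from 106 and 96.7 to 36.3 and 31.4, a fall of 1.59 ± 0.10. RPC53 fell most, by 2.00 ± 0.10, so the whole class moved within 0.67 units. Of the shared subunits RPC40 fell by 2.67 ± 0.09, from 327 and 294 to 52.1 and 45.6, and RPB5 by 2.54 ± 0.11, from 331 and 323 to 55.3 and 56.9. On the K. lactis scale, where the median of all genes was -0.89, all 31 members were called lower.

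**Figure D2:**
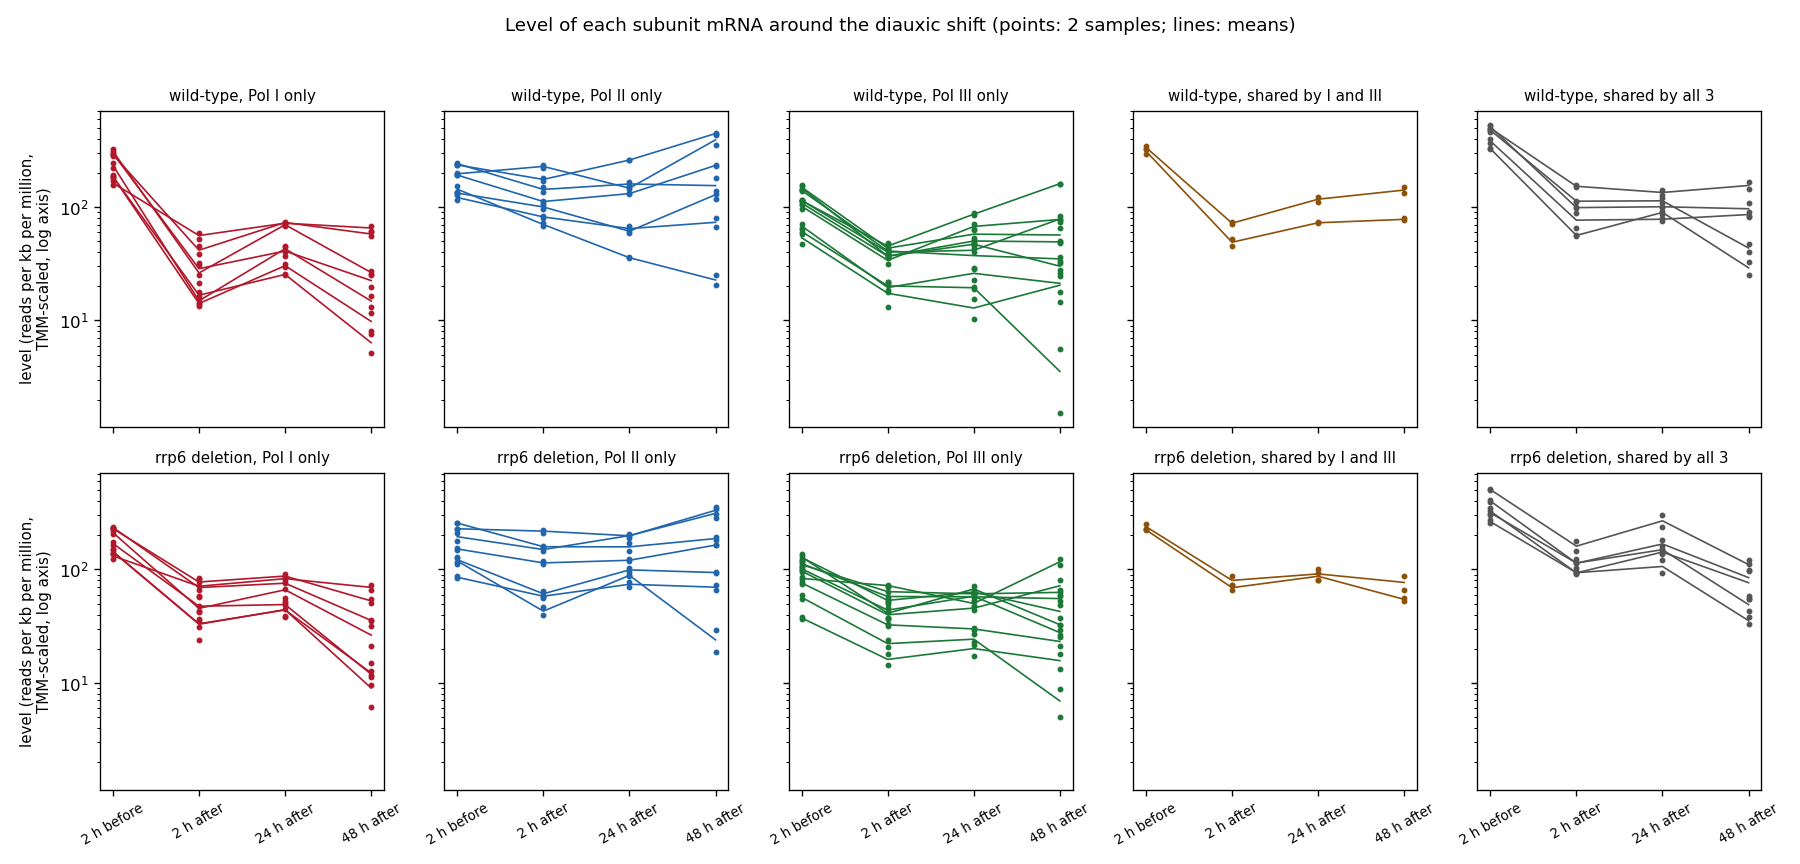
Level of each subunit mRNA (TMM-scaled RPKM, log axis) at 2 h before and 2 h, 24 h and 48 h after the diauxic shift, in wild-type cells above and rrp6Δ cells below, 1 panel per class. Points are the 2 samples and lines join the means. The polymerase I lines other than that of RPA14 drop furthest between the first and second time in wild-type cells, and RPO21 is the highest line of the wild-type polymerase II panel at 48 h.

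After the drop the enzymes went different ways on the main scale. From 2 h to 24 h after the shift 17 members were higher and 4 lower, or 67.7% against 60.3% of all genes (33.4% higher and 26.8% lower), but on the K. lactis scale, where the median of all genes was -1.35, none was higher and 28 were lower. On the main scale 6 of the 7 polymerase I subunits were higher, RPA190 going to 74.3 and 71.6, a change of 0.81 ± 0.10, and RPA49 to 40.3 and 45.4, a change of 1.53 ± 0.20. The catalytic pairs of the other enzymes were higher as well: RPO21 with 262 and 257 (0.57 ± 0.09), RPB2 with 132 and 130.2 (0.23 ± 0.07), RPO31 with 84.5 and 88.2 (0.93 ± 0.09) and RET1 with 71.1 and 63.5 (0.99 ± 0.10). RPB3, RPB4, RPB7 and RPB9 were the 4 members that fell, RPB9 most, to 36.0 and 35.4 from 68.1 and 72.0, by 0.97 ± 0.17. The call of RPB2 was lost without the 2 h replicate 2 (0.20, adjusted p = 0.08), and that of RPB3 without the 24 h replicate 1 (-0.28, adjusted p = 0.064). All samples of RPO31 and RET1 at 24 h stood above those at 2 h.

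From 24 h to 48 h, a comparison that shares the 24 h libraries with the one before, 7 members were higher and 11 lower, or 58.1% against 71.2% of all genes (32.7% higher and 38.5% lower). On the K. lactis scale, with a median of -1.47 over all genes, no member was higher and 28 were lower. On the main scale 6 polymerase I subunits fell, RPA12 most, to 5.18 and 7.54 from 25.7 and 25.1 (-2.09 ± 0.44), and the class median was -1.41. RPA190 fell by 0.34 ± 0.11, to 55.5 and 60.0, a call lost without 48 h replicate 1 (-0.29, adjusted p = 0.074) and with DESeq2 (adjusted p = 0.082). In polymerase II, RPO21 was at 446 and 442 (0.78 ± 0.09), RPB2 at 234 and 230.4 (0.83 ± 0.08), RPB4 at 430.4 and 351 (1.44 ± 0.11) and RPB7 at 139 and 117 (1.10 ± 0.13), all higher than at 24 h on the main scale, where with K. lactis scaling the first pair had -0.58 and -0.54. RPB9 was at 20.3 and 25.1 and fell by 0.70 ± 0.26 (adjusted p = 0.017), a call lost without 48 h replicate 1 (-0.52, adjusted p = 0.27). In polymerase III, RPO31 was at 160.8 and 160.1 (0.89 ± 0.08), RPC37 was higher in both samples than at 24 h (0.89 ± 0.14), and RPC25 was at 1.53 and 5.57, from 19.8 and 19.03 (-2.77 ± 0.45). RPC17, at 26.2 and 14.7 against 15.3 and 10.4, overlapped between the times, and its call (0.81 ± 0.36) was lost without 48 h replicate 1 (0.19, adjusted p = 0.80). RPB5 and RPO26 fell by 1.69 ± 0.18 and 1.42 ± 0.17, and the other 3 subunits shared by all enzymes were not called.

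G1 cells were also compared with cells 2 h before the shift. 5 members were called, or 16.1% against 53.3% of all genes (26.7% in each direction): RET1 (0.44), RPC34 (0.30) and RPC37 (0.25) were higher in G1, and RPB7 (-0.30) and RPB9 (-0.27) lower. No call other than that of RET1 was kept under every omission of 1 library, and the count was 1 without replicate 1 before the shift and 3 without G1 replicate 1. RET1 had 138 and 138 in G1 and 106 and 96.7 before the shift. According to the run names the G1 libraries and those before the shift carry different batch numbers, so state and batch cannot be told apart here. The names do not say what kind of batch this is.

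The effect of deleting RRP6 was compared at each time. Before the shift 20 members were lower in rrp6Δ cells and none higher, or 64.5% against 62.7% of all genes called and 31.5% called lower. All 7 polymerase I subunits were lower, by 0.30 to 0.49, RPA190 with 226 and 232 in rrp6Δ against 290.4 and 289 (-0.34 ± 0.10) and RPA135 with 236 and 233 against 323 and 297 (-0.40 ± 0.15). RPA34 changed most in the class (-0.49 ± 0.12). The call of RPA135 was lost without wild-type replicate 1 (-0.34, adjusted p = 0.13) or either rrp6Δ sample (adjusted p = 0.079 and 0.094). RPO21 was not called (229 and 228 against 236 and 233), and RPO31 was lower, with 81.7 and 85.0 against 113 and 114 (-0.45 ± 0.08). The largest differences of the remaining classes were in RPB3 (-0.51), RPC17 (-0.53), RPC19 (-0.49) and RPO26 (-0.59), of which that of RPC17 lost its call without wild-type replicate 1 (-0.34, adjusted p = 0.19). Without that sample 12 members were called in all, and without rrp6Δ replicate 2, 13. On the K. lactis scale, where all genes had a median of -0.40, 30 members were lower.

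At 2 h after the shift the direction for polymerase I was the opposite one on the main scale. 15 members were higher and 4 lower in rrp6Δ cells, or 61.3% against 62.9% of all genes called and 32.1% called higher. All 7 polymerase I subunits were higher, by 0.33 to 1.64, but with K. lactis scaling, where all genes had a median of -0.76, 3 of them were higher, 1 was lower and RPA34 and RPA14 had negative values. RPA190 had 71.7 and 83.2 in rrp6Δ and 45.0 and 38.1 in wild-type cells (0.90 ± 0.10), RPA135 had 56.8 and 81.6 against 30.8 and 21.6 (1.40 ± 0.17), and RPA49 had 36.2 and 58.6 against 16.4 and 13.3 (1.64 ± 0.19). In each of the 3 the lower rrp6Δ sample was above the higher wild-type sample. The calls of RPA12, RPA14 and RPA34 were lost without rrp6Δ replicate 2 (0.52, 0.22 and 0.59, adjusted p = 0.11, 0.25 and 0.051). RPO31 and RET1 were higher on the main scale, with 71.5 and 72.7 against 47.0 and 43.4 (0.67 ± 0.09) and 57.4 and 70.1 against 36.3 and 31.4 (0.91 ± 0.10), and with K. lactis scaling they had -0.11 and 0.13. RPO21 had 211 and 225 against 181 and 169 (0.31 ± 0.09), which was -0.47 with K. lactis scaling. RPB9, RPB7, RPB4 and RPB3 were lower in rrp6Δ cells, by 0.72, 0.70, 0.60 and 0.49.

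The step across the shift itself was tested for a difference between the genotypes. It was smaller in rrp6Δ than in wild-type cells for all 7 polymerase I subunits, with differences of 0.64 to 2.10, and stayed above 0 with K. lactis scaling (0.26 to 1.74, 6 of 7 called). In all 19 members had a difference above 0 and 3 below, or 71% against 53.2% of all genes called and 23% called higher. The class medians were 1.30 for polymerase I, 0.02 for II and 0.49 for III, against -0.08 over all genes. RPA49 had the largest difference, 2.10 ± 0.22 (adjusted p = 1.4e-07), RPA135 had 1.80 ± 0.22 and RPA190 1.23 ± 0.14. RPO31 had 1.12 ± 0.12, RET1 0.79 ± 0.13, RPC40 0.97 ± 0.13 and RPB5 1.04 ± 0.15. RPO21 and RPB2 had 0.35 ± 0.12 and 0.37 ± 0.10, which were -0.02 and -0.01 with K. lactis scaling. The call of RPO21 was lost without any of 4 single libraries (adjusted p between 0.051 and 0.080), 1 from each of the 4 groups. The 3 members below 0 were RPB4 (-0.59), RPB7 (-0.58) and RPB9 (-0.44). The call of RPB9 was also lost with DESeq2 (adjusted p = 0.17).

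**Figure D3:**
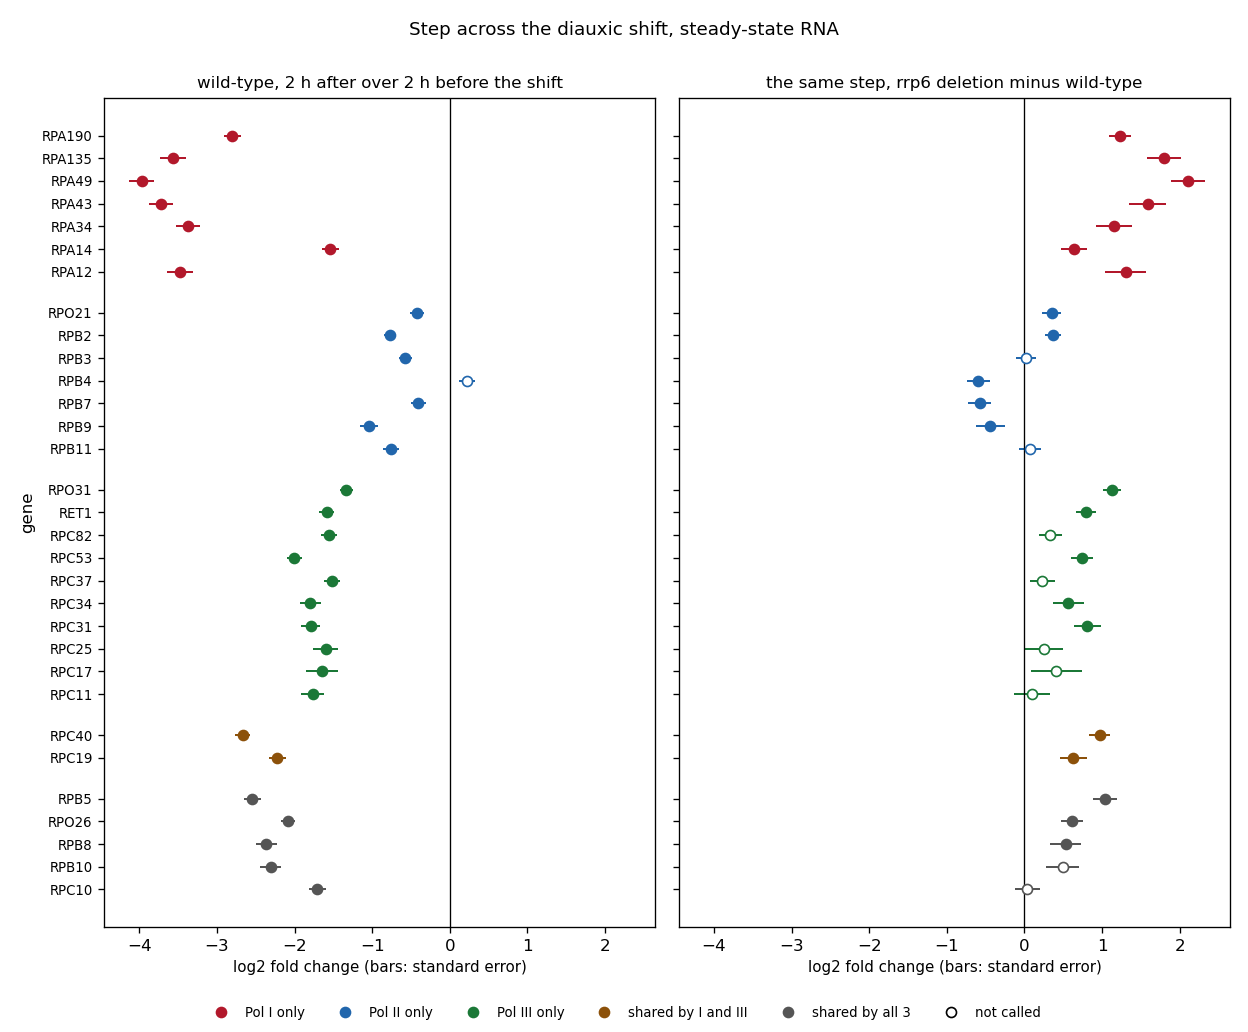
Log2 fold change from 2 h before to 2 h after the shift in wild-type cells on the left, and the difference of that step between rrp6Δ and wild-type cells on the right, for each of the 31 genes with standard errors. Filled points are called. The polymerase I genes other than RPA14 (-1.54) have the largest falls on the left, -3.97 to -2.80, and all 7 have values of 0.64 to 2.10 on the right, which shrink to 0.26 to 1.74 but stay above 0 with K. lactis scaling.

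The later steps of the course were tested for a difference between the genotypes in the same way, and these tests share libraries with the one before. From 2 h to 24 h the difference was above 0 for 9 members and below 0 for 10, or 61.3% against 64.6% of all genes (29% and 35.6%). RPB9 had 2.03 ± 0.22, with 89.5 and 87.7 at 24 h against 39.3 and 46.5 at 2 h in rrp6Δ cells and a fall in wild-type cells. RPB7 had 1.40 ± 0.16 and RPB4 1.04 ± 0.16. RPO31 had -1.46 ± 0.12, RPA49 -1.45 ± 0.25, RPA135 -1.28 ± 0.23 and RET1 -1.05 ± 0.14 there, but with K. lactis scaling all 31 members had a difference above 0, with a median of 2.09 over all genes. From 24 h to 48 h it was above 0 for 1 member and below 0 for 13, or 45.2% against 45.9% of all genes (24.1% and 21.8%). Without wild-type 48 h replicate 1 or rrp6Δ 48 h replicate 2, 8 members were called. RPC10 had -1.52 ± 0.23, RPB9 -1.18 ± 0.34 and RPB7 -1.18 ± 0.17, and the call of RPB9 was lost without rrp6Δ 48 h replicate 2 (-0.89, adjusted p = 0.066). RPO31 (0.33 ± 0.12) was the member above 0, and its call was lost when any of 6 of the 8 samples was left out (0.24 to 0.34, with adjusted p-values of 0.057 to 0.12). With K. lactis scaling, where the median of all genes was -0.58, RPO31 had -0.31 and 24 members were called, all below 0.

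At 24 h after the shift 15 members were higher and 3 lower in rrp6Δ cells, or 58.1% against 66.4% of all genes (32.1% higher and 34.2% lower), and with K. lactis scaling, where all genes had a median of 1.40, all 31 were higher. On the main scale RPO31 was the member that was lowest, with 52.7 and 47.5 against 84.5 and 88.2 (-0.78 ± 0.08), followed by RPO21, with 195 and 201 against 262 and 257 (-0.39 ± 0.09, a call lost without rrp6Δ replicate 1 at -0.25). RPB9 was 89.5 and 87.7 against 36.0 and 35.4 (1.31 ± 0.16), and RPC10 was 299.5 and 237 against 142 and 127 (1.01 ± 0.13). RPA12 led polymerase I with 48.7 and 39.2 against 25.7 and 25.1 (0.79 ± 0.22). RPC19 was lower (-0.36, adjusted p = 0.019), a call lost without either replicate 2 (adjusted p = 0.21 and 0.17). In none of RPO31, RPO21, RPB9, RPC10 and RPA12 did the genotypes overlap.

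At 48 h 9 members were lower in rrp6Δ cells and none higher, or 29% against 46.5% of all genes called and 27.2% called lower, but with K. lactis scaling, where all genes had a median of 0.79, 24 were higher and none lower. On the main scale no polymerase I subunit was called. RPO21 had 310.3 and 354 against 446 and 442 (-0.42 ± 0.09), RPB2 163 and 164 against 234 and 230.4 (-0.50 ± 0.07), RPO31 110.0 and 124 against 160.8 and 160.1 (-0.46 ± 0.08) and RPC19 87.8 and 65.8 against 149 and 133 (-0.90 ± 0.16). All of these were lower in each rrp6Δ sample than in either wild-type sample. RET1 was lower by 0.31 ± 0.10, a call lost without wild-type replicate 1 or rrp6Δ replicate 1 (adjusted p = 0.11 and 0.15). rrp6Δ replicate 1 carries another batch number than the other shift libraries of its genotype. Without wild-type replicate 1, 1 member was higher and 5 were lower.

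In G1 cells 2 members were higher and 8 lower in rrp6Δ, or 32.3% against 48.5% of all genes (25.6% higher and 23% lower), and no polymerase I subunit was called. The changes were small, between -0.39 for RPB2 (164 and 157 in rrp6Δ, 209.8 and 211 in wild-type cells) and 0.31 for RPB11 (328 and 345 against 264 and 279, a call lost without wild-type replicate 1 at 0.27). Without rrp6Δ replicate 1 or wild-type replicate 2 only 3 members were called, and on the K. lactis scale 2 were higher and none lower. In quiescent cells of day 8 steady-state RNA differed in 2 members, or 6.45% against 12% of all 6157 genes (4.78% higher and 7.2% lower). RPO21 had 343 and 353 in rrp6Δ and 559 and 618 in wild-type cells (-0.76 ± 0.15, adjusted p = 0.018), and RPB11 had 261 and 229 against 159 and 88.9 (0.99 ± 0.26, adjusted p = 0.047). Neither call was kept when any 1 of the 4 libraries was left out, and with K. lactis scaling, where all genes had a median of 1.18, 24 members were higher and RPO21 had 0.38. In nascent RNA of the same cells no member was called (0% against 1.22% of all genes) by edgeR or DESeq2, and by edgeR 0 of the 31 had an unadjusted p under 0.05. The replicates of these nascent groups differed more than those of any other group (chi-square per gene 87.2 in wild-type and 81.8 in rrp6Δ cells). RPA190, for example, had 172 and 83.9 in rrp6Δ and 147 and 85.7 in wild-type cells. The lack of calls therefore does not show that the levels were equal.

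Depletion of Nab3 in quiescent cells was compared with OsTIR-AID cells given the same auxin. In steady-state RNA 13 members were higher and 4 lower, or 54.8% against 62.7% of all 6171 genes called and 32.3% called higher. With K. lactis scaling, where all genes had a median of 1.82, 30 were higher and none lower, so the falls below hold on the main scale only. In nascent RNA 7 were higher and 8 lower, or 48.4% against 70.1% of all genes, and with K. lactis scaling, with a median of 1.13, 21 were higher and none lower. The classes did not move as blocks: polymerase III had 4 higher and 2 lower in steady-state and 4 higher and 5 lower in nascent RNA.

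RPC25 changed most in both fractions. In steady-state RNA it had 29.8 and 30.5 in Nab3-AID and 1.75 and 3.54 in OsTIR-AID cells (3.49 ± 0.52, adjusted p = 1.9e-05), and in nascent RNA 44.1 and 43.0 against 11.5 and 8.06 (2.11 ± 0.21, adjusted p = 1.5e-07). It was also higher with K. lactis scaling, by 5.19 and 3.18. Its OsTIR-AID steady-state levels rested on very few reads, so the size of that difference is uncertain. In OsTIR-AID steady-state replicate 1, where RPC25 had the lowest level of all members, the lowest count of any member was 1. RPC31 had 105.6 and 103.8 against 66.5 and 56.9 (0.76 ± 0.18) and in nascent RNA 121.7 and 110.0 against 57.8 and 47.7 (1.12 ± 0.14), and RPC82 had 87.8 and 86.0 against 42.1 and 32.3 (1.22 ± 0.17) and in nascent RNA 145 and 159 against 112 and 85.0 (0.61 ± 0.12). All 3 were higher in every Nab3-AID sample. RPO31 went the other way on the main scale, with 108 and 106 against 194 and 176 in steady-state (-0.79 ± 0.10) and 120.1 and 111 against 166 and 159.6 in nascent RNA (-0.49 ± 0.09). RPC34 had 18.4 and 14.8 against 17.6 and 15.4 in steady-state RNA, which overlapped (0.03 ± 0.30), and was lower in nascent RNA, with 17.3 and 14.6 against 31.3 and 29.9 (-0.93 ± 0.17). RET1 was not called in steady-state RNA (0.06) and was lower in nascent RNA (-0.54 ± 0.12).

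In polymerase I, RPA135 (73.3 and 53.4 against 28.8 and 17.9, 1.45 ± 0.31), RPA12 (35.5 and 27.5 against 8.86 and 5.99, 2.09 ± 0.51) and RPA34 (70.5 and 53.2 against 28.6 and 29.0, 1.11 ± 0.26) were higher in steady-state RNA. The OsTIR-AID levels of RPA12 also rested on few reads. RPA190 was not called (82.0 and 68.4 against 61.3 and 50.6, 0.43 ± 0.18, adjusted p = 0.056), and RPA43, with no reads in OsTIR-AID replicate 2, was not called either. In nascent RNA no polymerase I subunit was called, and their values lay between -0.43 and 0.32. In polymerase II, RPO21 was lower in both fractions on the main scale, with 317 and 362 against 530.3 and 534 (-0.65 ± 0.11) and 275 and 285 against 345 and 383 (-0.38 ± 0.11, a call lost without nascent Nab3-AID replicate 1, adjusted p = 0.053). RPB2 was not called in either. RPB9 was higher in steady-state RNA (79.1 and 79.9 against 54.5 and 12.3, 1.24 ± 0.39), a value that rested on OsTIR-AID replicate 2 and was 0.54 (adjusted p = 0.20) without it. RPB4 was higher in nascent RNA, with 219 and 228 against 142 and 145 (0.64 ± 0.11). RPC19 was lower in both fractions, with 156 and 145 against 338 and 190.0 (-0.81 ± 0.20, and -0.34 with adjusted p = 0.14 without OsTIR-AID replicate 1) and 111 and 113 against 258 and 256 (-1.20 ± 0.16).

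**Figure D4:**
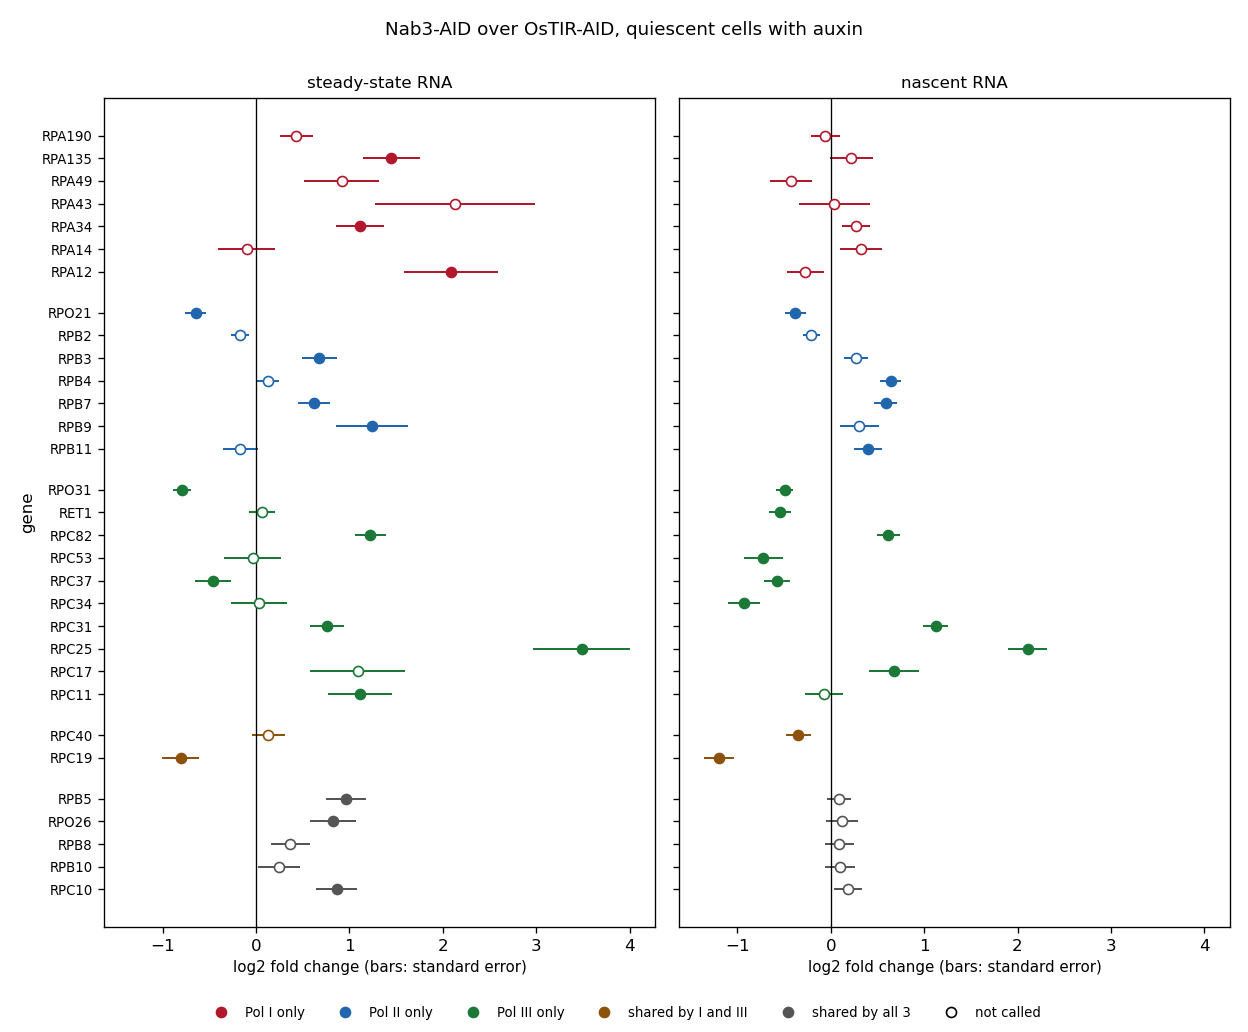
Log2 fold change of Nab3-AID over OsTIR-AID quiescent cells for each of the 31 genes, in steady-state RNA on the left and nascent RNA on the right, with standard errors. Filled points are called. RPC25 is the highest point in both panels (3.49 and 2.11), and the points below 0 move above it with K. lactis scaling, except that of RPC19 in nascent RNA (-0.12).

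Reads on the strand opposite to the subunit genes were compared as a second readout, with the library factors of the sense reads. Genes that overlap on that strand add to them: BUD30 covers 557 bases of RPC53, YNL114C 285 of RPC19 and YNR003W-A 99 of RPC34, and YIL021C-A and YIL020C-A lie across from RPB3. A gene entered the test only with enough such reads in some group, so the counts below are no measure of all 31 genes. In day 8 quiescent cells 22 members entered, and in steady-state RNA 6 were higher and 1 lower in rrp6Δ, where 30.8% of 5936 genes were called and 27.6% were higher. RPC34 antisense reads (gene at YNR003C, chromosome XIV, 634344 to 635297) had a level of 36.9 and 31.6 in rrp6Δ and 0.992 and 0.890 in wild-type cells (5.15 ± 0.59), and those of RPC53 (YDL150W, chromosome IV, 183343 to 184611) 18.9 and 30.4 against 0.746 and 0.669 (5.12 ± 0.61). Both stood below 1 in wild-type cells and many times higher in each rrp6Δ sample. In nascent RNA these 2 genes were called again (1 of them without rrp6Δ or wild-type replicate 1), with smaller differences of 1.06 ± 0.30 and 1.30 ± 0.33, where 14.6% of all genes were called, but not with K. lactis scaling. RPO21 antisense reads were lower in rrp6Δ steady-state RNA, with 5.94 and 6.11 against 12.4 and 15.8 (-1.23 ± 0.25, and -0.09 with K. lactis scaling).

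In Nab3-AID cells 25 members entered, of which steady-state RNA gave 17 higher and 1 lower, and nascent RNA 20 higher and none lower, where 69.3% and 83.7% of 5966 genes were called and 63.3% and 76.7% were higher. Without either OsTIR-AID steady-state sample 11 were called there. RPC34 had the largest antisense level, 105 and 134 against 1.17 and 0 in steady-state (7.58 ± 0.51) and 77.3 and 98.5 against 2.20 and 2.86 in nascent RNA (5.13 ± 0.27). In steady-state Nab3-AID RNA it lay above the sense level of the same gene, 18.4 and 14.8. RPC53 had 42.0 and 53.0 against 4.40 and 1.78 (3.92 ± 0.39) and 52.1 and 59.5 against 2.98 and 2.87 (4.24 ± 0.25). Sense RPC53 and RPC34 were both lower in nascent Nab3-AID RNA on the main scale, by 0.72 ± 0.20 and 0.93 ± 0.17, the first call being lost without OsTIR-AID replicate 1 (-0.41, adjusted p = 0.098) or Nab3-AID replicate 2 (-0.53, adjusted p = 0.052). RPC25, the member whose sense reads rose most, was the one with fewer antisense reads, 8.39 and 8.44 against 8.74 and 30.1 (-1.20 ± 0.50, and 0.48 with K. lactis scaling). The lower control sample was close to both Nab3-AID samples.

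**Figure D5:**
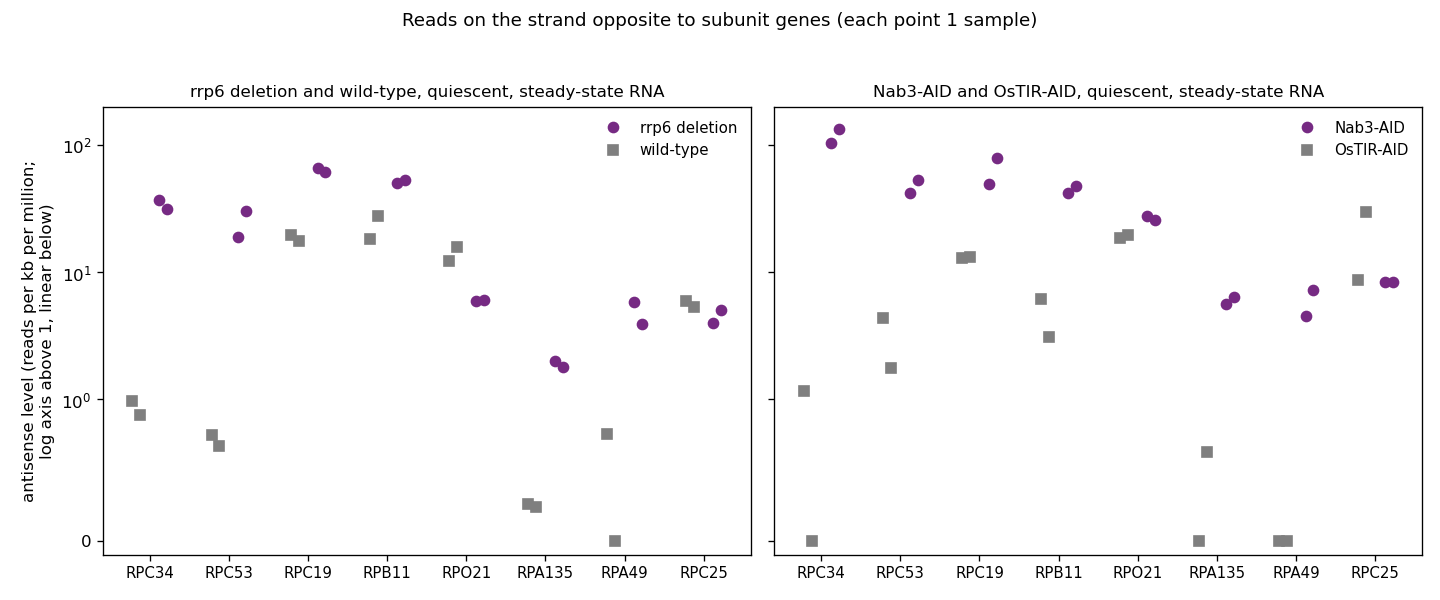
Antisense level (TMM-scaled RPKM, log axis above 1 and linear below) over 8 subunit genes in quiescent steady-state RNA, with rrp6Δ and wild-type cells of day 8 on the left and Nab3-AID and OsTIR-AID cells on the right, each point 1 sample. The genes were chosen after their values were seen. RPC34 and RPC53 show the widest gaps on the left, and RPC34 the widest on the right.

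In quiescent against G1 wild-type cells 13 members entered the antisense test. In steady-state RNA RPC19, RPA43 and RPO21 were higher and RPC37 lower (2 calls without G1 or quiescent replicate 1, or with K. lactis scaling), where 48.7% of 4644 genes were called, and in nascent RNA 7 were higher and 1 lower, where 67.6% were called. RPO21 antisense reads had 3.04 and 7.99 in quiescence against 0.614 and 0.819 in G1 (2.92 ± 0.47), and in nascent RNA 5.12 and 8.06 against 0.377 and 0.419 (4.04 ± 0.46, and -0.27 with K. lactis scaling). A catalogued cryptic transcript, CUT4x-CUT4125 (chromosome IV, 206674 to 206935), lies antisense within RPO21 and rose in both fractions on the main scale (adjusted p = 0.00030 and 3.0e-05). On the main scale the reads of CUT4x-CUT4125 in rrp6Δ day 8 steady-state RNA were lower by 1.90 ± 0.45 than in wild-type cells. Catalogued noncoding RNAs were tested on that scale only, and no alternative was run for them.

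Initiation and assembly factors were set beside the subunits, and their counts are to be read against all genes, of which steady-state RNA had 36.6% higher and 37.8% lower. For nascent RNA these shares were 29.2% and 32.9%. In steady-state RNA of quiescent against G1 cells the polymerase II general transcription factors had 11 of 19 higher and none lower (median 0.91), with TFB3, of TFIIH, at 269 and 429.7 against 51.5 and 44.3 (2.86 ± 0.24). Of the 8 polymerase III initiation factors 7 were higher and 1 lower (median 0.93): TFC3, a TFIIIC subunit, had 146 and 227 against 23.4 and 22.8 (3.01 ± 0.24), BRF1, of TFIIIB, had 107 and 142 against 33.5 and 30.5 (1.96 ± 0.19), and TFC8 had 3.72 and 5.56 against 21.6 and 20.7 (-2.22 ± 0.24). MAF1, which represses polymerase III, had 201 and 297 against 67.8 and 54.7 and rose by 2.02 ± 0.22. Of the 9 polymerase I initiation factors 1 was higher and 4 lower (median -0.10), RRN11 falling by 1.98 ± 0.35. Mediator, which links activators to polymerase II, had 7 of 25 higher and 8 lower, the elongation factors of polymerase II 4 of 9 higher and 4 lower, and the assembly and import factors 4 of 8 higher and 2 lower. IWR1, which takes assembled polymerase II into the nucleus, rose to 194 and 279.8 from 37.8 and 43.3 (2.54 ± 0.26). In nascent RNA none of the 19 polymerase II factors was higher and 2 were lower (median -0.35), while 3 of 8 polymerase III factors were higher and 1 was lower, and MAF1 was higher (0.88 ± 0.21). With K. lactis scaling the nascent medians of these lists were between -5.27 and -3.56. The steady-state counts and changes of these lists are given on the main scale alone.

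Across the shift in wild-type cells, where 40.8% of all genes were called higher and 36.7% lower, 8 of 9 polymerase I initiation factors fell (median -0.69), RRN11 from 69.7 and 70.5 to 11.7 and 9.34 (-2.74 ± 0.15). 3 of 8 polymerase III initiation factors rose and none fell (median 0.08), and MAF1 rose from 43.3 and 42.2 to 79.3 and 81.7 (0.91 ± 0.09, and -0.03 with K. lactis scaling). The polymerase II general factors had 5 of 19 higher and 7 lower (median -0.10), SPT15, the TATA-binding protein used by all 3 enzymes, falling by 1.24 ± 0.08. Mediator had 8 of 25 higher and 8 lower, the elongation factors 1 of 9 higher and 5 lower, and the assembly and import factors 2 of 8 higher and 5 lower, RBA50 falling by 1.87 ± 0.10. On the K. lactis scale the list medians of this step were all below 0, between -1.64 and -0.03.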

How the data were processed

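The deposited counts are whole reads per mRNA gene of a joined S. cerevisiae (sacCer3/R64), K. lactis and 20S virus genome, in separate tables for the sense and the opposite strand, and per noncoding RNA. Per the submitters' processing notes, FastQC, MultiQC, UMI-tools, STAR, SAMtools, HTSeq and deepTools were used, and their versions are not given in the sources used here. Reads given to no gene, to several genes or aligned to several places (6.31% to 28.0%, 0.119% to 1.99% and 7.99% to 62.5%) stayed out of library sizes. The counts of 2 samples sequenced in 2 runs were added up, so 46 count columns gave 44 samples. All 31 genes and the lists of other factors were chosen with earlier results of these data known.

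Genes passing filterByExpr (minimum count 10) were tested with edgeR 4.0.16 in R 4.3.3 (TMM factors from S. cerevisiae genes, robust quasi-likelihood fit, adjusted p under 0.05). There was 1 fit for each of the 4 library sets and no comparison across kits. A prior count of 2 was set for log2 values of the scaled counts of single libraries, and not for the tested fold changes. Antisense counts used the library factors of the sense counts. Named with values are the catalytic pairs, the member of each class with the largest called change, members called against their class, and the 3 largest called changes of other lists, while further members were named to account for all. Alternatives were DESeq2 1.42.0, K. lactis scaling, no filter, a replicate block, leaving out each sample, and leaving out the second runs. The fits were also run on simulated counts in which few genes changed, unlike these data, so that run does not check the scaling between libraries. Per the labels the 2 replicates of a group carry different strain numbers. The p-values use a spread between replicates that is pooled over all groups of a library set and moderated across genes. They do not measure the spread of the 2 compared groups alone. Replicates differed by more than sampling noise (chi-square per gene 2.26 to 87.2).

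Wild-type samples with one replicate number carry one strain number across states, so the number pairs them, while genotypes share only the number. The correlation of same-numbered deviations from the group means was -0.03 to 0.43 in the Ovation set, -0.08 to 0.15 in the shift set, -0.06 to 0.64 in the day 8 set and -0.04 to 0.47 in the auxin set. No promoter or protein sequences were analysed here.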

Additional observations from a re-analysis of the deposited data

Results flagged for a closer look

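These results compare a change between 2 kinds of RNA or between the genotypes, and each difference was tested as an interaction in edgeR's quasi-likelihood fit. The change from G1 to quiescence differed between nascent and steady-state RNA for 15 of the 31 members, where 37.6% of all genes were called. The nascent minus steady-state differences were 2.54 for RPA43, 2.33 for RPA49 and 2.30 for RPA135 on the log2 scale. These 3 had the opposite sign with K. lactis scaling. The change over the 4 h around the shift differed between rrp6Δ and wild-type cells for 22 members, where 53.2% of all genes were called. It differed by 2.10 for RPA49, 1.80 for RPA135 and 1.59 for RPA43. The change from 2 h to 24 h differed for 19 members, by 2.03 for RPB9, -1.46 for RPO31 and -1.45 for RPA49. Of all genes 64.6% were called there, and RPO31 and RPA49 had the opposite sign with K. lactis scaling. The change from 24 h to 48 h differed for 14 members, by -1.52 for RPC10, -1.18 for RPB9 and -1.18 for RPB7, where 45.9% of all genes were called. The 3 tests between genotypes share libraries with each other, and the cause of each difference was not tested.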

How the results depend on the processing

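With 2 samples a group, omissions of 1 sample gave these lowest and highest counts of called members: Q against G1 steady-state 23 to 26, nascent 15 to 22 and their difference 12 to 18; nascent against steady-state 0 to 2 in G1 and 16 to 21 in quiescence. For rrp6Δ against wild type they were 0 and 0 at day 8 in both kinds of RNA, 3 to 9 in G1, 12 to 18 at 2 h before, 15 to 20 at 2 h after, 12 to 20 at 24 h and 6 to 10 at 48 h. For the wild-type steps they were 30 and 30, 16 to 20 and 14 to 19, with 1 to 4 for G1 against 2 h before. For the differences between genotypes they were 19 to 23, 13 to 17 and 8 to 14, and for Nab3-AID 14 to 20 steady-state and 12 to 15 nascent. Antisense counts ranged from 2 to 4 and 7 to 9 in quiescence, 5 to 6 and 1 to 2 at day 8, and 11 to 16 and 17 to 20 with Nab3-AID. Counts moved by over 1.5 times without any 1 library for nascent against steady-state RNA in G1 (0 to 2) and for rrp6Δ at day 8 (0), without wild-type replicate 1 at 2 h before (1) or G1 replicate 1 (3) for the comparison of these states, and without G1 nascent replicate 1 (15, quiescence against G1), rrp6Δ G1 replicate 1 or wild-type G1 replicate 2 (3 each), wild-type replicate 1 at 2 h before (12), rrp6Δ replicate 2 there (13), wild-type replicate 1 or rrp6Δ replicate 2 at 48 h (8 each, last genotype difference), either control sample for steady-state antisense reads (11 each), rrp6Δ or wild-type replicate 1 for nascent antisense reads at day 8 (1 each), and steady-state replicate 1 of G1 or quiescence for antisense reads (2 each). The cause was not tested.

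K. lactis scaling gave 28 called members for the nascent minus steady-state change, 28 and 13 for nascent against steady-state RNA in G1 and quiescence, 24 at day 8, 2 in G1, 31 at 24 h and 24 at 48 h for rrp6Δ, 28 for 48 h against 24 h, and 30 for Nab3-AID steady-state. It gave 13, 31 and 24 for the 3 differences between genotypes, and 2, 12 and 0 antisense calls for quiescence, rrp6Δ steady-state and rrp6Δ nascent RNA. At day 8 DESeq2 called 4 members, and leaving out the second run left 1. A replicate block moved no sense count by over 1.5 times (26 for quiescence against G1, 21 and 19 for Nab3-AID).

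Among the values of 214 named members and comparisons, 76 had opposite signs on the main and the K. lactis scale and were called on at least 1 of them. Values called on neither side also changed sign under several alternatives and are not listed. The 76 became, for nascent quiescence against G1, RET1 -4.15; for its difference from steady-state RNA, RET1 -3.02, RPA135 -1.80, RPA190 -2.36, RPA43 -1.58, RPB8 -2.49, RPC25 -2.51 and RPC40 -2.83. For nascent against steady-state RNA in G1 they became RET1 1.98, RPA135 1.58, RPA190 1.49, RPB11 0.17, RPB2 1.83, RPB8 1.18, RPC40 1.45, RPO21 1.82 and RPO31 2.00, and in quiescence RET1 -1.04, RPA135 -0.23, RPA190 -0.87, RPB5 -0.81, RPB9 -0.99, RPC25 -0.18 and RPC40 -1.39. For rrp6Δ they became RPO21 0.38 at day 8, RET1 -0.29 at 2 h before, and RPB2 -0.75, RPB5 -0.05, RPC40 -0.29, RPO21 -0.47 and RPO31 -0.11 at 2 h after. At 24 h they became RET1 1.27, RPB2 1.29, RPC19 1.06, RPO21 1.02 and RPO31 0.63, and at 48 h RET1 0.47, RPA190 0.65, RPB2 0.27, RPC10 0.31, RPO21 0.35 and RPO31 0.31. For the wild-type step to 24 h they became RET1 -0.44, RPA135 -0.01, RPA190 -0.62, RPB2 -1.20, RPB5 -0.75, RPC19 -0.72, RPO21 -0.86 and RPO31 -0.49, and for that to 48 h RET1 -1.16, RPB2 -0.54, RPO21 -0.58 and RPO31 -0.47. The genotype differences became RPB2 -0.01 and RPO21 -0.02 over the shift, RET1 1.14, RPA135 0.91, RPA190 1.56, RPA49 0.73, RPB2 2.04, RPB5 1.72, RPC19 1.69, RPO21 1.49 and RPO31 0.74 to 24 h, and RPO31 -0.31 to 48 h. For Nab3-AID they became RPB2 1.51, RPC19 0.88, RPC37 1.21, RPO21 1.02 and RPO31 0.89 in steady-state RNA, and RET1 0.51, RPA190 1.01, RPB2 0.86, RPO21 0.72 and RPO31 0.60 in nascent RNA.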
